A study of Citrus trifoliata and Citrus junos with 20 samples.

Results

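Roots of a rootstock that tolerates alkaline soil and of one that does not were compared under the strongest alkalinity of the study, pH 9.5. Ziyang xiangcheng (Citrus junos, Cj) is the tolerant rootstock and trifoliate orange (Poncirus trifoliata, Pt) the sensitive one. The comparison used the 3 small RNA libraries of Pt roots and the 3 of Cj roots grown at pH 9.5, which are 6 of the 20 samples of the series. All 100 listed miRNAs were followed, 49 known and 51 predicted, and 96 had enough reads to be tested. Seedlings of both rootstocks had spent 8 weeks in nutrient solution, each library held the roots of 3 seedlings, and no transgene or graft was involved. Further groups of 3 libraries per rootstock at pH 6.5, which the study took as normal, and at pH 8.0 served to ask whether the rootstock difference was the same in the other solutions. The sources do not say whether the pools were grown in separate vessels, and the p-values therefore cover pool-to-pool spread alone. In whole roots, fewer cells of a type and less RNA per cell cannot be told apart.

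Plant miRNAs are short RNAs that are cut from hairpin precursors and loaded into an Argonaute protein. They guide cleavage or repression of transcripts with near-perfect complementarity, many of which encode transcription factors, nutrient transporters or resistance proteins. Roots are known for miRNAs that answer to copper, phosphate and sulfate supply, and high pH is known to limit the solubility of iron, phosphate and other nutrients. Reads were matched to the genome of another species, Citrus sinensis (sweet orange). A miRNA with few reads in Pt or Cj may thus be one that is not made, or one whose sequence differs from that of C. sinensis, and these cannot be told apart here.

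The nutrient miRNAs are shown first, because their members separated the rootstocks in opposite directions. The seed (bases 2 to 8 from the 5′ end) is in capitals throughout. The MIR399 members have a common seed.
csi-miR399e: uGCCAAAGgagaauugcccug
csi-miR399b: uGCCAAAGgagaguugcccua
csi-miR399d: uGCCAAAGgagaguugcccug
csi-miR827: uUAGAUGAccaucaacaaaca
csi-miR398: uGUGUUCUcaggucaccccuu
csi-miR397: uCAUUGAGugcagcguugaug
csi-miR408: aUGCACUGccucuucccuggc

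The next sequences were at least several times lower in Pt. The known miRNAs csi-miR473 and csi-miR477b are near-identical once aligned, whereas their seeds are offset, and csi-miR171b and csi-miR479 are the opposite arms of a listed hairpin.
csi-miR473: aCUCUCCCucaagggcuucgc
csi-miR477b: cUCUCCCUcaagggcuucucu
csi-miR479: uGUGAUAUugguucggcucauc
csi-miR171b: cGAGCCGAaucaauaucacuc

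The MIR160 members are printed because they have a common seed and nearly the same sequence. Only 1 of the 3 differed between the rootstocks by the test used throughout, and this count depended on how the libraries were scaled.
csi-miRN43: uGCCUGGCucccuguaugcuu
csi-miRN40: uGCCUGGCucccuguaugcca
csi-miRN45: uGCCUGGCucccuguaugccg

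The last set holds predicted miRNAs that were near absent from the libraries of one rootstock, together with csi-miRN23 and csi-miRN34, whose rootstock difference was another at pH 6.5. csi-miR396b is shown beside csi-miRN32 because the latter is the opposite arm of its hairpin, and csi-miRN30 and csi-miRN34 are both assigned to MIR3627.
csi-miRN04: uAUUGCAUuauuuuaauacuggug
csi-miRN27: gAAACAACuucgugagguaggaga
csi-miRN41: uUUCUCUUaucuuuuaucugug
csi-miRN44: gUACUGUAgcugugagggggacgu
csi-miRN16: uUCGUUCGuugaaacucuaaa
csi-miRN30: uUGUCGCAggagcguuggcacc
csi-miRN12: aUCUAUUUggaugaagauaagggc
csi-miRN11: aAGAUAGGuagauuuaguuaauag
csi-miRN32: aUUCAAGAaagcuguggaaaa
csi-miR396b: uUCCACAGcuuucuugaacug
csi-miRN21: cGGGUUAUaaauucggguuga
csi-miRN06: aAAAUUUUgagggacuaaugaua
csi-miRN23: cACGCGGCcaucucucauuga
csi-miRN34: uUGUCGCCggagagauagcacc

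At pH 9.5 the listed miRNAs held 329859, 399632 and 516110 reads in the Cj libraries and 664349, 711609 and 441607 in the Pt libraries. In these sums, reads listed under 2 names count under both, which concerns 5 pairs of miRNAs with the same reads. Counted once, the listed reads were 69.2% to 73.5% of the total mapped reads in Cj and 76.5% to 78.8% in Pt. These totals are the library sizes behind the authors' TPM, 451534 to 862300 at pH 9.5. They are far below the numbers of unannotated reads that the authors report, so the shares are not shares of all small RNA. The share moved with the rootstock, and its part in the results was not tested. csi-miR159, which acts on MYB transcription factors, alone held 43.2 ± 1.06% (SD, n = 3) of the listed reads counted once in Pt and 30.75 ± 2.42% in Cj. Because of such shifts in composition, levels are given as CPM, counts scaled to a common library size with TMM factors, which set the bulk of the miRNAs equal between libraries. Fold differences are log2 values of Pt minus Cj from edgeR's quasi-likelihood test, with the SE, and a miRNA was called at an adjusted p under 0.05.

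By this test 57 of the 96 miRNAs differed between the rootstocks (59.4%), 28 higher in Pt (29.2%) and 29 lower in Pt (30.2%), and 62 had an unadjusted p under 0.05 (64.6%). The median log2 difference over all tested miRNAs was -0.09. The Pt and Cj libraries did not overlap for 63 of the 96 (65.6%), among them all 57 called ones, with Pt the lower in 34 (35.4%) and the higher in 29. Differences over 4-fold were mostly on the side of lower levels in Pt, with 14 lower (14.6%) and 6 higher (6.25%). The scaling decided the split of the smaller differences. With libraries scaled to the sum of their listed reads, which shifted all log2 values by a median of -0.52, 13 were higher and 52 lower, and with the total mapped reads (shift -0.40) 17 were higher and 48 lower. Under 6 scalings tried, 40 of the 57 were called in the same direction each time, 13 higher and 27 lower in Pt, and 1 of the others, csi-miR482b, changed direction.

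The copper miRNAs were split. csi-miR398, which acts on Cu/Zn superoxide dismutases, was higher in Pt, and csi-miR397 (laccases) and csi-miR408 (plantacyanin-like copper proteins) were lower. In Arabidopsis all of them accumulate when copper is scarce. csi-miR398 stood at 10807, 13848 and 16509 CPM in Cj and at 36359, 31663 and 35310 CPM in Pt. Every Pt library was above every Cj library, and the log2 difference was 1.33 ± 0.19 (SE, edgeR adjusted p = 7.41e-07). csi-miR397 stood at 859.3, 1175 and 1356 CPM in Cj and at 508.6, 429.7 and 480.4 CPM in Pt. Here all the Pt libraries were the lower ones, with a log2 difference of -1.26 ± 0.21 (edgeR adjusted p = 1.16e-05). csi-miR408, far more abundant than csi-miR397, had 11084, 14441 and 16343 CPM in Cj against 5576, 6174 and 7632 CPM in Pt. Its groups were likewise apart, by -1.11 ± 0.18 on the log2 scale (edgeR adjusted p = 5.62e-06). The 3 calls held under the 6 scalings.

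In the phosphate and sulfate list, 4 members could be tested, all of them phosphate miRNAs, and the sulfate member csi-miR395 could not. All 4 were higher in Pt, beside 29.2% over all miRNAs, or 3 of 4 with libraries scaled to the listed reads. With near-identical sequences summed it was 2 of 2, since 3 of the 4 are MIR399 members. Their median log2 difference was 1.76 beside -0.09 over all miRNAs. MIR399 restrains PHO2, an enzyme that marks phosphate transporters for removal, and miR827 acts on SPX-domain proteins of phosphate homeostasis. csi-miR399e had 116.8, 83.1 and 154.2 CPM in Cj and 884.9, 397.3 and 428.4 CPM in Pt. The highest Cj library was below the lowest Pt library, and the log2 difference was 2.27 ± 0.31 (edgeR adjusted p = 3.76e-07). With the near-identical MIR399 members summed, the difference was 1.56 (edgeR adjusted p = 5.24e-07), since reads cannot always be assigned to one member. csi-miR399b was at 151.8, 99.2 and 130.7 CPM in Cj and at 409.9, 215.7 and 287.6 CPM in Pt. csi-miR399d was at 268.5, 300.0 and 243.9 CPM in Cj and at 819.7, 436.9 and 455.9 CPM in Pt. Both were higher in all Pt libraries, by 1.26 ± 0.28 (edgeR adjusted p = 0.000399) and 1.08 ± 0.25 (edgeR adjusted p = 0.000475). csi-miR399d lost its call with libraries scaled to the listed reads (0.56, edgeR adjusted p = 0.0726).

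csi-miR827 was scarce, with 2, 0 and 2 reads in the Cj libraries and 27, 19 and 17 in the Pt libraries. Its log2 difference was 3.83 ± 0.79 (edgeR adjusted p = 0.000148). The untested csi-miR395, which acts on ATP sulfurylases and a sulfate transporter, had 0, 1 and 0 reads in Cj against 10, 6 and 4 in Pt. Scaled to library size this is a ratio of 19.4 with an exact 95% interval from 3.10 to 802.3, and at least 4.42 without Cj replicate 2. Such intervals and floors cover counting error only. csi-miR399a had 17 reads in Cj and 19 in Pt and was not tested.

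**Figure D1:**
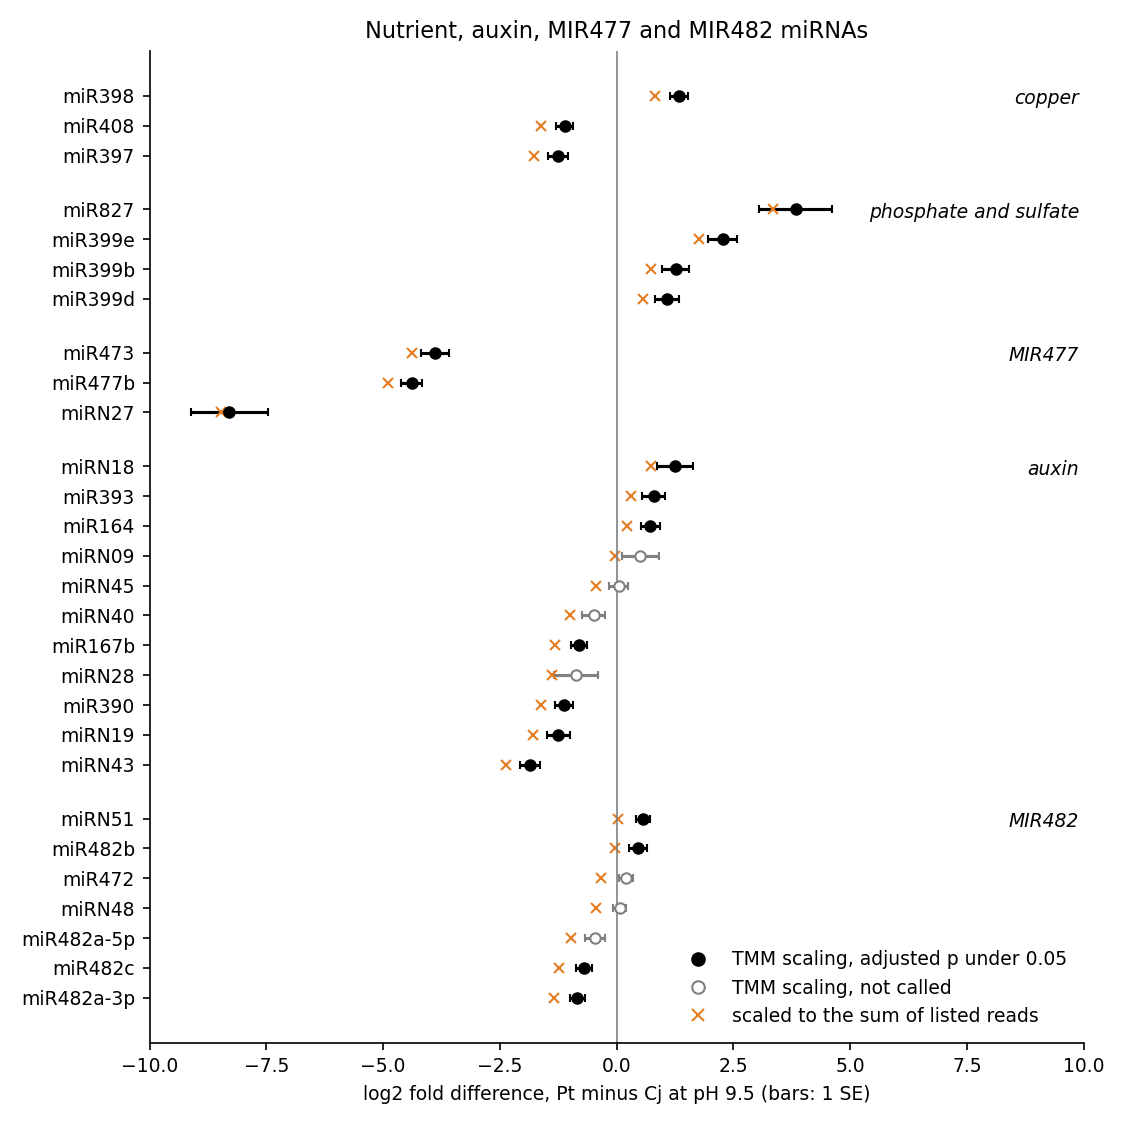
The log2 difference between Pt and Cj roots at pH 9.5 is plotted on the horizontal axis for each tested member of 5 groups of miRNAs. Circles are TMM-scaled values with bars of 1 SE, filled where called, and crosses are values with libraries scaled to their listed reads. The phosphate members lie to the right of 0 and the MIR477 members far to the left, and the crosses move the members of the auxin and MIR482 lists that were higher in Pt towards or past 0. The value of csi-miRN27, which had no reads in Pt, depends on the fit and is no bound.

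Among known miRNAs lower in Pt, the widest gaps were those of csi-miR477b, csi-miR473 and csi-miR479. All 3 members assigned to MIR477 were lower in Pt, or 2 of 2 with near-identical sequences summed, beside 30.2% over all miRNAs. csi-miR477b had 5648, 7943 and 9004 CPM in Cj and only 322.3, 352.4 and 410.1 CPM in Pt. The libraries were far apart, and its log2 difference of -4.39 ± 0.22 (edgeR adjusted p = 3.76e-15) is a level 20.9-fold lower in Pt. csi-miR473 had 1161, 1719 and 2072 CPM in Cj and 102.5, 122.2 and 107.1 CPM in Pt. It was lower by -3.89 ± 0.29 on the log2 scale (edgeR adjusted p = 3.56e-12). Their sequences overlap so closely that reads may have been split between them. csi-miRN27, a predicted 24-nt miRNA assigned to the same family although its seed is another, had 27, 43 and 42 reads in Cj and none in Pt. Against a floor of 3 reads over the Pt group it was at least 38.6-fold lower in Pt, or at least 23.5-fold without Pt replicate 2.

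csi-miR479 and csi-miR171b come from opposite arms of 1 hairpin of MIR171, a family that acts on SCARECROW-like transcription factors. The seed of csi-miR479 is another than that of csi-miR171b, and whether csi-miR479 acts on these factors was not tested. csi-miR479 stood at 5901, 6844 and 7491 CPM in Cj and at 639.0, 469.2 and 547.8 CPM in Pt, a log2 difference of -3.61 ± 0.19 (edgeR adjusted p = 3.76e-15). csi-miR171b, the scarce arm, had 16, 16 and 22 reads in Cj and 3, 4 and 0 in Pt, and its log2 difference was -2.94 ± 0.53 (edgeR adjusted p = 3.05e-05). Both arms of this hairpin were thus lower in every Pt library. csi-miR171a and its opposite arm csi-miRN05, from another listed MIR171 hairpin, gave log2 differences of -0.20 and -0.09 and were not called.

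csi-miR530a, a known miRNA outside the lists, had 6, 13 and 29 reads in Cj and 63, 64 and 46 reads in Pt. All Pt libraries were the higher ones. Its log2 difference was 1.84 ± 0.39 (edgeR adjusted p = 0.000211), and 2.48 without Cj replicate 3.

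Members of the auxin list moved in both directions. Of 11 tested, 3 were higher in Pt, 4 were lower and 4 were not called, with a median log2 difference of -0.49. This is near the 59.4% called over all miRNAs and thus no result about the list as such. With libraries scaled to their listed reads, 0 were higher and 7 lower. The lower ones held under all scalings. csi-miRN43, of the MIR160 family that acts on auxin response factors, had 1240, 1904 and 1994 CPM in Cj and 443.4, 463.8 and 508.0 CPM in Pt. It was lower in each Pt library, by -1.86 ± 0.21 on the log2 scale (edgeR adjusted p = 1.2e-08). csi-miRN45, the most abundant of the 3 MIR160 members, had 1933, 3018 and 3481 CPM in Cj and 3039, 2769 and 2880 CPM in Pt. Its groups overlapped, and its difference of 0.04 ± 0.20 was not called. csi-miRN40 was not called either, at -0.49 ± 0.25 (edgeR adjusted p = 0.0819), and without Cj replicate 1 it was at -0.63 (edgeR adjusted p = 0.0369). Summed as 1 near-identical group, the MIR160 members differed by -0.33, which was not called (edgeR adjusted p = 0.141).

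csi-miR390 sets off the small RNAs of the TAS3 transcripts, which in turn restrain auxin response factors. It had 3157, 4382 and 5288 CPM in Cj and 2256, 1814 and 1842 CPM in Pt, and csi-miRN19, the other arm of its hairpin, 854.6, 662.3 and 751.3 CPM in Cj and 430.4, 233.7 and 284.6 CPM in Pt. Both arms were lower in all Pt libraries, by -1.12 ± 0.19 (edgeR adjusted p = 1.42e-05) and -1.25 ± 0.25 (edgeR adjusted p = 8.36e-05) on the log2 scale. csi-miR167b, which acts on a further set of auxin response factors, was lower in Pt as well, at 5646, 7084 and 8348 CPM in Cj against 3927, 3919 and 4260 CPM. This was a log2 difference of -0.80 ± 0.17 (edgeR adjusted p = 0.000229). csi-miRN28, which matches the opposite arm of csi-miR167b with 1 mismatch, had 21, 28 and 18 reads in Cj and 9, 25 and 5 in Pt. Its groups overlapped and it was not called (-0.87 ± 0.48, edgeR adjusted p = 0.116). It was called without Pt replicate 2 (-1.65, edgeR adjusted p = 0.0136) and with only the 6 libraries at pH 9.5 (-1.01, edgeR adjusted p = 0.0495). The same held with libraries scaled to the listed reads (-1.39, edgeR adjusted p = 0.0178) or the total mapped reads (-1.27, edgeR adjusted p = 0.0234).

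The 3 members of the auxin list that were higher in Pt lost their calls with libraries scaled to the listed or the total mapped reads, with no change of sign. csi-miR393, which acts on the TIR1/AFB auxin receptors, had 170.5, 302.3 and 308.3 CPM in Cj and 456.4, 447.6 and 452.9 CPM in Pt (0.79 ± 0.25, edgeR adjusted p = 0.00817). csi-miRN18, its opposite arm, differed by 1.25 ± 0.39 (edgeR adjusted p = 0.00675). csi-miR164, which acts on NAC transcription factors that include regulators of lateral roots, had 1754, 2494 and 2900 CPM in Cj and 3884, 4002 and 3932 CPM in Pt. It differed by 0.72 ± 0.20 (edgeR adjusted p = 0.00257). The near-identical csi-miRN09 was at 0.51 ± 0.39 and was not called (edgeR adjusted p = 0.235).

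MIR482 miRNAs act on resistance genes of the NBS-LRR class. Of the 7 tested, 2 were higher in Pt, 2 were lower and 3 were not called, which is near the 59.4% called over all miRNAs. The median was 0.07, and with libraries scaled to the listed reads 0 were higher and 5 lower. csi-miR482a-3p had 15533, 17376 and 20683 CPM in Cj and 9544, 10904 and 9569 CPM in Pt, and csi-miR482c 6438, 6650 and 7495 CPM in Cj and 4494, 4273 and 3871 CPM in Pt. Both were lower in all Pt libraries, by -0.84 ± 0.16 (edgeR adjusted p = 7.07e-05) and -0.70 ± 0.17 (edgeR adjusted p = 0.000708). csi-miRN48 is near-identical to csi-miR482a-3p and differed by 0.07 ± 0.14. With both summed the difference was -0.23 and not called (edgeR adjusted p = 0.143).

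csi-miRN51, among the 5 most abundant miRNAs, had 42778, 44450 and 48578 CPM in Cj and 67866, 65429 and 66346 CPM in Pt (0.56 ± 0.15, edgeR adjusted p = 0.00179), but only 0.03 with libraries scaled to the listed reads. csi-miR482b differed by 0.46 ± 0.19 (edgeR adjusted p = 0.0354). That call was lost without Cj replicate 1 (0.38, edgeR adjusted p = 0.0833), without Pt replicate 2 (0.39, edgeR adjusted p = 0.13) and without Pt replicate 3 (0.43, edgeR adjusted p = 0.0976), and scaling to the listed reads turned it to -0.04. csi-miR472 and csi-miR482a-5p were at 0.20 ± 0.16 and -0.46 ± 0.21 and were not called. With the listed reads both were called lower in Pt (-0.33, edgeR adjusted p = 0.0357, and -0.97, edgeR adjusted p = 0.00027). csi-miR482a-5p was also called with the total mapped reads (-0.86, edgeR adjusted p = 0.00108) and with only the 6 libraries at pH 9.5 (-0.59, edgeR adjusted p = 0.0273). The same held with TMM factors from known miRNAs (-0.52, edgeR adjusted p = 0.0256) or the same reads counted once (-0.48, edgeR adjusted p = 0.0489).

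Among the miRNAs of growth regulators, 8 of 19 were higher in Pt, 3 were lower and 8 were not called, again near the 59.4% over all miRNAs. The 8 higher ones include csi-miR166a and csi-miR166e-3p, which hold the same reads. The median was 0.30, and with libraries scaled to the listed reads 3 were higher and 8 lower. csi-miR159 was the most abundant miRNA of either rootstock, at 204304, 285068 and 302145 CPM in Cj and 522072, 511985 and 548683 CPM in Pt. All Pt libraries were above the Cj ones, by 1.00 ± 0.14 on the log2 scale (edgeR adjusted p = 4.72e-07), and the call held under the 6 scalings. csi-miR172a-3p, which acts on AP2-like factors, had 74.7, 140.8 and 199.0 CPM in Cj and 333.5, 293.0 and 342.7 CPM in Pt, and its difference of 1.21 ± 0.28 (edgeR adjusted p = 0.000513) held as well. csi-miR319, which acts on TCP factors, was higher by 0.78 ± 0.17 (edgeR adjusted p = 0.000248), and lost its call with the listed reads (0.28, edgeR adjusted p = 0.0711).

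MIR166 acts on class III HD-ZIP factors. csi-miR166c had 55973, 63001 and 69848 CPM in Cj and 77180, 100873 and 104832 CPM in Pt (0.58 ± 0.15, edgeR adjusted p = 0.00115). csi-miR166a had 37641, 43673 and 51749 CPM in Cj and 59009, 67658 and 70091 CPM in Pt (0.56 ± 0.15, edgeR adjusted p = 0.00159). In all 6 libraries at pH 9.5 csi-miR166a and csi-miR166e-3p had equal counts, so they are 1 set of reads under 2 names. The differences of csi-miR166a and csi-miR166c were 0.05 and 0.06, and not called, with libraries scaled to their listed reads. csi-miR166d, with the same seed, overlapped between the rootstocks at 51749, 58833 and 61243 CPM in Cj and 53653, 57871 and 67698 CPM in Pt (0.06 ± 0.16). With these reads counted once, MIR166 made 21.6 ± 1.65% of the listed reads in Pt and 25.1 ± 0.39% in Cj (SD, n = 3).

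Of the SPL list (csi-miR156 and csi-miR535, which act on SPL transcription factors, and relatives), edgeR called 0 of 5, beside 59.4% over all miRNAs. At an unadjusted p under 0.05 were 2, csi-miRN07 and csi-miRN08. These have the same sequence and reads, are 1 measurement, and are the arm opposite to csi-miR535. DESeq2 called 0 of 5 and limma 2, and all 5 were lower in Pt with libraries scaled to the listed or the total mapped reads. The miRNAs of the small RNA machinery had 1 of 8 called, or 1 of 7 with the same sequence counted once, beside 59.4% over all miRNAs. This count depended on the settings. Called lower in Pt were 4 of 8 with the listed reads, and 3 with the total mapped reads or with only the 6 libraries at pH 9.5. The 1 called with TMM factors was csi-miR162-5p, the arm opposite to the miRNA that acts on DCL1. Its difference of -0.79 ± 0.28 (edgeR adjusted p = 0.0157) was not called without Cj replicate 2 (-0.69, edgeR adjusted p = 0.0618), Cj replicate 3 (-0.66, edgeR adjusted p = 0.0717), Pt replicate 1 (-0.73, edgeR adjusted p = 0.0536) or Pt replicate 3 (-0.62, edgeR adjusted p = 0.0878). Of the 3 tested miRNAs from csi-miR3951 to csi-miR3954, csi-miR3952 was lower in Pt, at 11680, 11646 and 12321 CPM in Cj and 4607, 4584 and 4709 CPM in Pt. Its log2 difference was -1.36 ± 0.17 (edgeR adjusted p = 7.59e-08). csi-miR3954 was higher by 0.72 ± 0.20 (edgeR adjusted p = 0.00322), a call that was lost with the listed reads (0.16, edgeR adjusted p = 0.609).

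The largest differences belonged to predicted miRNAs with almost no reads in 1 rootstock. For these, reads are given, in the order of the libraries. csi-miRN04 (listed hairpin window chrUn:18664050-18664299, minus strand, C. sinensis genome, release not stated) had 50, 73 and 48 reads in Cj and none in Pt. It was at least 58.9-fold lower in Pt against the floor of 3 reads over the group, or at least 35.8-fold without Pt replicate 2. csi-miRN41 and csi-miRN42 have the same sequence and the same reads from windows that start 93 bp apart (chr4:7873462-7873711 and chr4:7873555-7873804, minus strand). These were 562, 607 and 597 in Cj and 1, 2 and 3 in Pt, a fitted log2 difference of -8.16 ± 0.45 (edgeR adjusted p = 9.58e-15). csi-miRN44 (chrUn:4097900-4098149, plus strand) had 1835, 1087 and 1476 reads in Cj and 4, 9 and 6 in Pt (-7.88 ± 0.56, edgeR adjusted p = 2.16e-12).

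Lower counts separated the rootstocks as clearly. csi-miRN16 (chr2:22128319-22128568, minus strand) had 113, 103 and 131 reads in Cj and 0, 2 and 0 in Pt. Its scaled ratio was 179.3, with an exact 95% interval from 49.3 to 1486, and without Pt replicate 2 it was at least 72.7-fold lower in Pt. csi-miRN30 (chr6:19948441-19948690, plus strand) had 43, 49 and 72 reads in Cj and 1, 0 and 0 in Pt. Its ratio was 169.5 (interval 29.99 to 6733), and without Pt replicate 1 it was at least 35.1-fold lower. csi-miRN12 (chr7:31634730-31634979, minus strand), with 160, 103 and 141 reads in Cj and 1, 2 and 1 in Pt, and csi-miRN11 (chr7:14837031-14837280, plus strand), with 60, 67 and 98 against 2, 5 and 1, were lower by -6.58 ± 0.53 (edgeR adjusted p = 2.28e-11) and -4.79 ± 0.55 (edgeR adjusted p = 1.83e-08). The difference of csi-miRN11 was -5.50 without Pt replicate 2.

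The opposite pattern was seen for csi-miRN32, csi-miRN21 and csi-miRN06. csi-miRN32 (chr7:3041240-3041489, minus strand) had 1, 0 and 0 reads in Cj and 156, 144 and 97 in Pt. The ratio was 384.2 with an exact interval from 68.6 to 15214, and at least 88.2 without Cj replicate 1. csi-miRN21 (chr8:9708300-9708549, plus strand) had 1, 0 and 3 reads in Cj and 167, 160 and 126 in Pt, a log2 difference of 6.69 ± 0.47 (edgeR adjusted p = 1.95e-12) that was 7.85 without Cj replicate 3. csi-miRN06 (chr1:9667895-9668144, minus strand) had 1, 0 and 1 reads in Cj and 69, 107 and 60 in Pt, a ratio of 114.2 (interval 31.3 to 948.5). None of these 3 overlapped between the rootstocks.

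**Figure D2:**
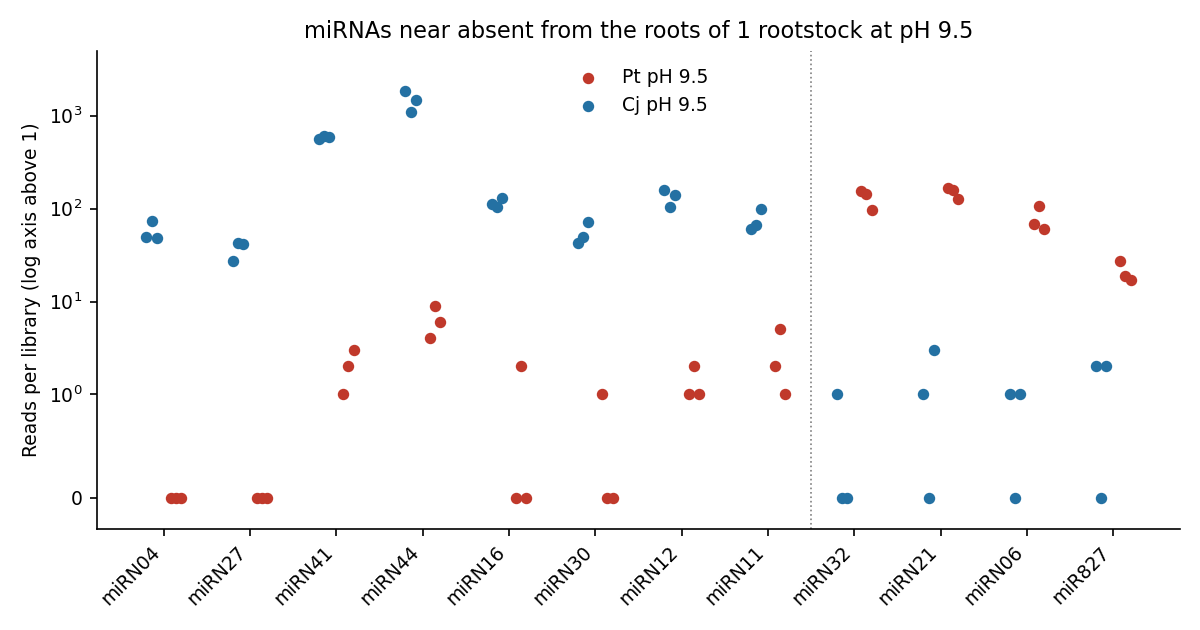
Reads in each library at pH 9.5 are plotted on an axis that is logarithmic above 1, for 8 miRNAs with few or no reads in Pt (left of the dotted line) and 4 with few or no reads in Cj. Each point is 1 of the 3 Cj (blue) or 3 Pt (red) libraries. The 2 colours stay apart in every column, by over 100 times for csi-miRN41 with 562 to 607 reads in Cj and 1 to 3 in Pt.

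csi-miRN32 is the arm opposite to csi-miR396b, which acts on growth-regulating factors, and the reads of these arms stood in different ratios in the rootstocks. There were 167.7, 123.3 and 112.2 reads of csi-miR396b for each read of csi-miRN32 in the Pt libraries. In Cj, 8700 reads of csi-miR396b stood beside 1 of csi-miRN32, and 11047 and 15407 beside 0. Whether csi-miRN32 is not made in Cj or has another sequence there cannot be told apart. csi-miR396b itself differed by only 0.59 ± 0.17 (edgeR adjusted p = 0.0043), and by 0.09 with libraries scaled to the listed reads. By contrast, csi-miR390 had 5.24, 7.76 and 6.47 reads for each read of csi-miRN19 in Pt and 3.69, 6.62 and 7.04 in Cj, and these ratios overlapped. The ratio of csi-miR482a-3p to csi-miR482a-5p did not, at 13.5, 18.3 and 17.2 in Pt and 20.04, 20.7 and 21.9 in Cj. Nor did those of csi-miR166c to csi-miR166e-5p, at 9.43, 9.69 and 9.50 in Pt and 9.26, 7.79 and 7.07 in Cj, and of csi-miR166a to csi-miR166e-5p, at 7.21, 6.50 and 6.35 in Pt and 6.23, 5.40 and 5.24 in Cj.

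csi-miRN30 and csi-miRN34 have windows whose starts lie 3984 bp apart on the 2 strands of chromosome 6, and both are assigned to MIR3627, yet they went in opposite directions. csi-miRN34 (chr6:19944457-19944706, minus strand) had 93.4, 57.7 and 42.9 CPM in Cj and 329.8, 100.7 and 122.4 CPM in Pt. It was higher in Pt by 1.53 ± 0.39 (edgeR adjusted p = 0.00141), but without Pt replicate 1, its highest library, the difference was 0.84 and not called (edgeR adjusted p = 0.0568). It was not called with libraries scaled to their listed reads (1.00, edgeR adjusted p = 0.056). csi-miRN23 (chr5:10687126-10687375, plus strand) was well apart, at 16.4, 13.8 and 17.6 CPM in Cj and 149.0, 145.6 and 165.2 CPM in Pt (3.24 ± 0.34, edgeR adjusted p = 4.1e-09).

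A length of 24 nt is in plants otherwise typical of small RNAs from repeats. Of the 22 predicted miRNAs of 24 nt, 10 were lower in Pt and 3 higher, with a median log2 difference of -0.24, beside 30.2% lower and 29.2% higher among all tested. Of the 29 predicted miRNAs of 21 to 23 nt, 8 were higher and 6 lower, with a median of 0.04. The 24-nt miRNAs higher in Pt were csi-miRN38, csi-miRN39 and csi-miRN50. csi-miRN38 had 476.4, 274.6 and 286.9 CPM in Cj and 978.1, 1356 and 1236 CPM in Pt (1.78 ± 0.29, edgeR adjusted p = 6.61e-06). csi-miRN39 had 338.6, 339.2 and 318.1 CPM in Cj and 786.2, 1444 and 1304 CPM in Pt (1.83 ± 0.22, edgeR adjusted p = 6.65e-08). Neither overlapped. csi-miRN50 held most of the 24-nt reads, at 36536, 34881 and 31585 CPM in Cj and 55718, 75049 and 77631 CPM in Pt (1.02 ± 0.19, edgeR adjusted p = 6.37e-05). It was not called with libraries scaled to the listed reads (0.47, edgeR adjusted p = 0.0558).

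The 24-nt class together made up 5.73%, 7.12% and 6.91% of the listed reads in Pt and 7.17%, 5.34% and 4.66% in Cj. These shares overlapped, and the means of 6.59% and 5.72% were 0.86 percentage points apart (exact two-sided permutation test, p = 0.4, with 0.1 the smallest p that 3 against 3 libraries allow). With reads listed under 2 names counted once, the difference was 0.92 percentage points (exact permutation test, p = 0.3). Without csi-miRN50 the shares were 1.23%, 1.26% and 1.16% in Pt and 2.42%, 1.56% and 1.52% in Cj, so that the difference turned from 0.86 to -0.62 percentage points. All Cj libraries then lay above the Pt ones, at the smallest p that the exact test allows (p = 0.1). Among the remaining 24-nt miRNAs, csi-miRN44 alone held 4398 reads in Cj and 19 in Pt. Whether the shares stay apart without it was not tested. By sequence, 64.3% of the miRNAs higher in Pt and 51.7% of those lower in Pt began with U, beside 56.2% of all tested. The median GC content was 50% in the first and 47.6% in the second, which is also that of all tested miRNAs.

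The rootstock difference at pH 9.5 was then set against that in the other solutions, which were measured in other libraries. At pH 6.5, 61 of 96 miRNAs differed between Pt and Cj by edgeR (63.5%), 33 of them lower in Pt (34.4%). At pH 8.0 57 did (59.4%), 31 of them higher in Pt (32.3%), and 62 had an unadjusted p under 0.05 (64.6%). Of the 57 called at pH 9.5, 38 were called in the same direction at pH 6.5, which is 66.7% of the pH 9.5 calls and 62.3% of the pH 6.5 calls. With pH 8.0 there were 49 in common, 86.0% of either list. Called in the same direction in all 3 solutions were 37 miRNAs, 16 higher and 21 lower in Pt, among them all 12 near-absent predicted miRNAs of the preceding paragraphs. Only csi-miRN34 was called in opposite directions at pH 6.5 and pH 9.5.

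A test of the difference of differences asks directly whether the gap at pH 9.5 was another than at pH 6.5, and 18 of 96 miRNAs (18.8%) were called by edgeR, 12 with a lower (12.5%) and 6 with a higher value (6.25%) at pH 9.5, while 34 had an unadjusted p under 0.05 (35.4%). With libraries scaled to the listed reads these were 25 and 6, and with the total mapped reads 22 and 5. Without Pt pH 6.5 replicate 1 it called 29. All 3 copper miRNAs were among the 12. csi-miR397 stood at 1120 ± 82.9 CPM (SD, n = 3) in Cj and 1226 ± 178.8 CPM in Pt at pH 6.5, and at means of 1130 and 472.9 CPM at pH 9.5. The log2 difference was thus 0.13 and not called at pH 6.5 and -1.26 at pH 9.5, a shift of -1.39 ± 0.29 (edgeR adjusted p = 0.000776). csi-miR408 shifted in the same sense, by -0.96 ± 0.25 (edgeR adjusted p = 0.00467), from 18869 ± 1819 CPM in Cj and 16986 ± 2930 CPM in Pt at pH 6.5. Its call was lost without Cj pH 6.5 replicate 3 (-0.89, edgeR adjusted p = 0.0505), Pt pH 6.5 replicate 2 (-0.87, edgeR adjusted p = 0.0582) or Pt pH 9.5 replicate 1 (-0.83, edgeR adjusted p = 0.0662).

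csi-miR398 was higher in Pt in every solution, but the gap was narrower at pH 9.5 than at pH 6.5. At pH 6.5 it stood at 3056 ± 418.1 CPM in Cj and 16431 ± 3024 CPM in Pt, a log2 difference of 2.43 against 1.33 at pH 9.5 (shift -1.10 ± 0.26, edgeR adjusted p = 0.00231). The gaps of csi-miR479 and csi-miR473 were wider at pH 9.5. csi-miR479 went from 10367 ± 571.4 CPM in Cj and 3787 ± 648.1 CPM in Pt at pH 6.5 to 6745 ± 800.0 and 552.0 ± 85.0 CPM at pH 9.5 (shift -2.16 ± 0.24, edgeR adjusted p = 1.05e-07). csi-miR473 went from 4866 ± 176.5 and 1249 ± 450.6 CPM to 1651 ± 459.8 and 110.6 ± 10.4 CPM (shift -1.93 ± 0.36, edgeR adjusted p = 0.000202), and summed with csi-miR477b the shift was -1.24. csi-miR477b alone was not called, at -0.67 (edgeR adjusted p = 0.0825). Of the 4 tested phosphate miRNAs edgeR called 0 against pH 6.5, beside 18.8% over all miRNAs, with csi-miR399d at an unadjusted p under 0.05.

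**Figure D3:**
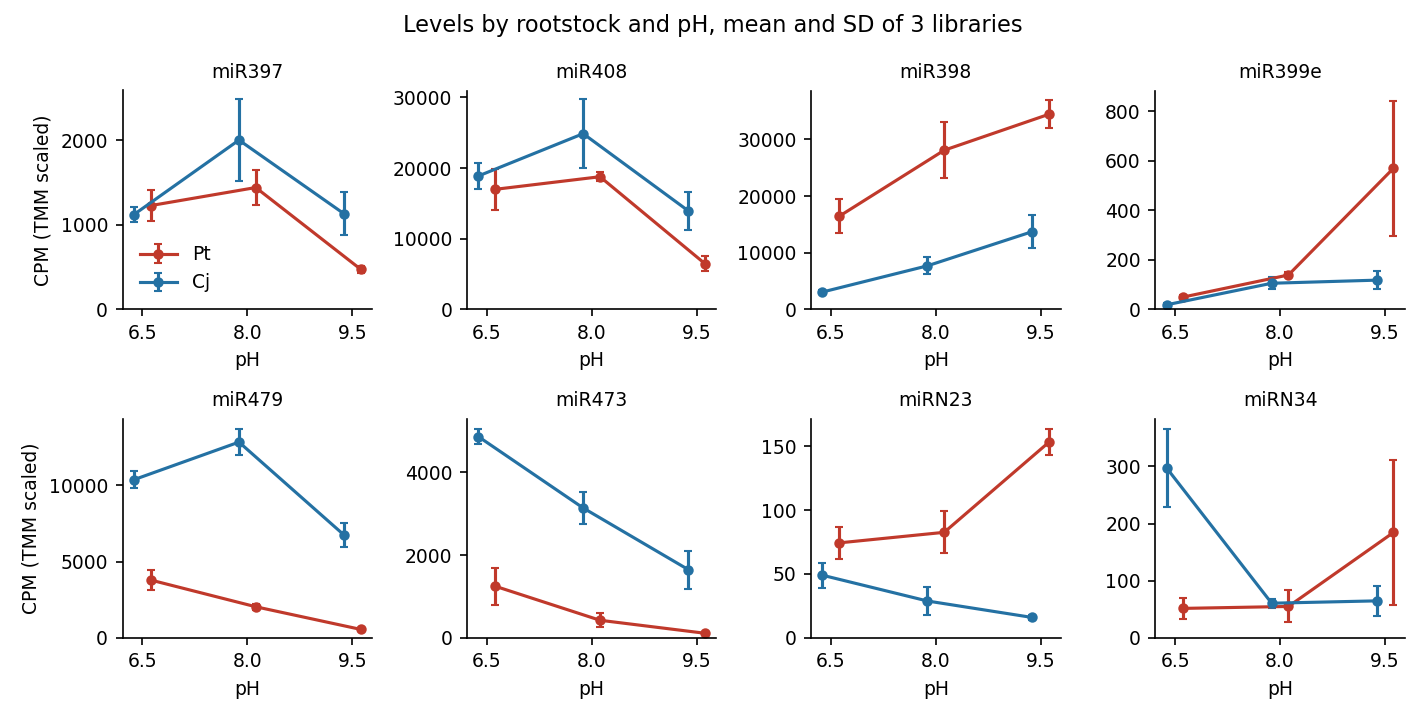
TMM-scaled CPM (mean and SD of 3 libraries) is plotted against the pH of the nutrient solution for Cj (blue) and Pt (red) roots and 8 miRNAs, each on its own axis from 0. csi-miR397 stands at 1120 and 1226 CPM in Cj and Pt at pH 6.5 and at 1130 and 472.9 CPM at pH 9.5, while csi-miRN34 has the rootstocks in opposite order at these 2 pH values.

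The largest called shifts were those of csi-miRN34, csi-miRN23, csi-miRN20, csi-miRN52 and csi-miR479. csi-miRN34 was lower in Pt at pH 6.5, at 297.0 ± 68.9 CPM in Cj and 51.5 ± 18.7 CPM in Pt, so its shift to the higher level in Pt at pH 9.5 was 4.03 ± 0.55 (edgeR adjusted p = 3.35e-06), or 3.33 without Pt pH 9.5 replicate 1. csi-miRN23 stood at 48.99 ± 9.92 CPM in Cj and 74.3 ± 12.5 CPM in Pt at pH 6.5, and its gap widened by 2.65 ± 0.46 (edgeR adjusted p = 0.000112). csi-miRN20, of MIR396, and csi-miRN52 went the other way. csi-miRN52 stood at 3985 ± 146.9 CPM in Cj and 25591 ± 3506 CPM in Pt at pH 6.5. At pH 9.5 it was at 31380 ± 1585 and 37813 ± 8827 CPM, no longer a called difference (0.27 ± 0.15, shift -2.41 ± 0.22, edgeR adjusted p = 2.71e-09). csi-miRN20 went from 18.2 ± 6.04 and 70.3 ± 20.3 CPM to 93.9 ± 5.25 and 68.9 ± 22.6 CPM (shift -2.41 ± 0.52, edgeR adjusted p = 0.000879).

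**Figure D4:**
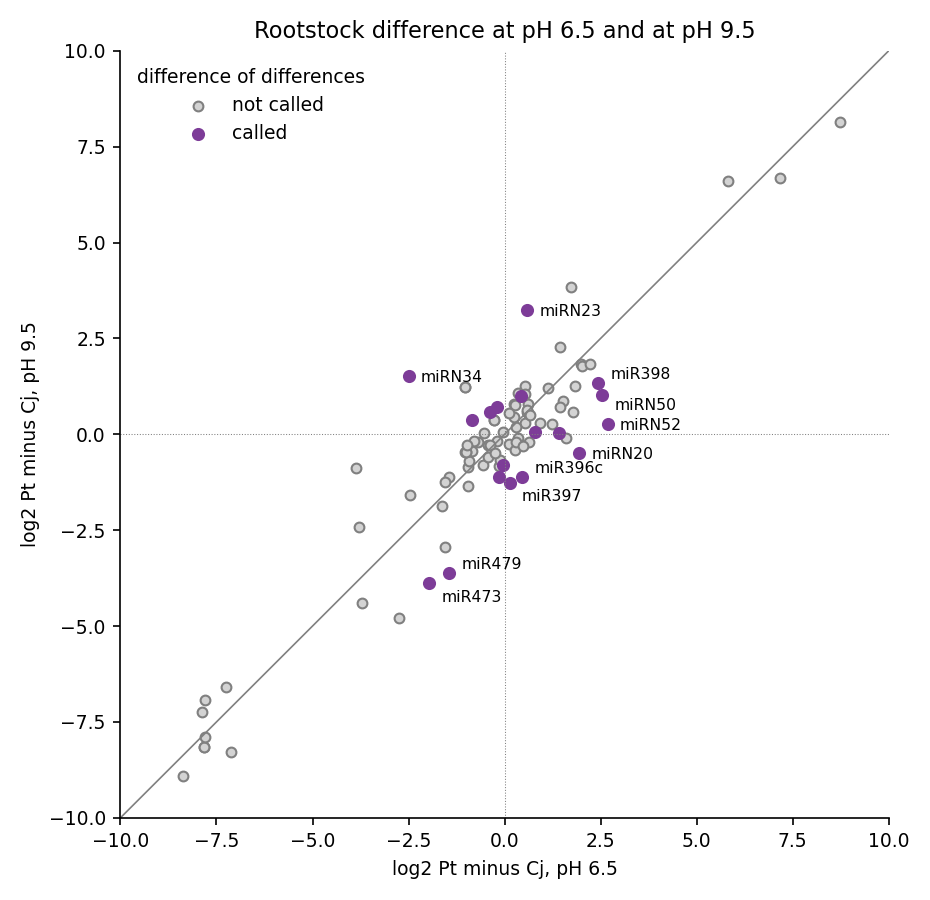
Each of the 96 tested miRNAs is plotted by its log2 difference between Pt and Cj at pH 6.5 (horizontal) and at pH 9.5 (vertical), with the line of equal values. Purple points are the 18 whose difference of differences was called. Many miRNAs with large differences lie near the line at both ends, and csi-miRN34 lies in the upper left, at -2.50 and 1.53.

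Against pH 8.0, edgeR called 6 of 96 miRNAs (6.25%), 4 with a lower (4.17%) and 2 with a higher value (2.08%) at pH 9.5, and 13 at an unadjusted p under 0.05, while DESeq2 called 4 and limma 6. The largest was csi-miR399e, at 105.4 ± 23.5 CPM in Cj and 138.9 ± 10.1 CPM in Pt at pH 8.0 and at 118.0 ± 35.6 and 570.2 ± 273.0 CPM at pH 9.5 (shift 1.88 ± 0.45, edgeR adjusted p = 0.0178). With the MIR399 members summed the shift was 0.33 and not called. csi-miR396c, which stood at 850.0, 1089 and 1175 CPM in Cj and 395.0, 449.4 and 596.7 CPM in Pt at pH 9.5, shifted by -1.09 ± 0.32 (edgeR adjusted p = 0.0317). The others were csi-miR479, csi-miRN23, csi-miRN47 and csi-miRN52, with shifts of -0.95, 1.67, -0.89 and -0.85. Leaving out 1 library of pH 8.0 or pH 9.5 at a time lowered the count. It was 0, with 8 to 13 at an unadjusted p under 0.05, without Cj replicate 3 or Pt replicate 2 of pH 8.0 and without Cj replicate 2 or Pt replicate 1 of pH 9.5. It was 1 to 3 without any other library of these groups, namely 1 without replicate 1 of either rootstock at pH 8.0 or replicate 3 of either at pH 9.5, 2 without Cj replicate 1 or Pt replicate 2 of pH 9.5, and 3 without Cj replicate 2 or Pt replicate 3 of pH 8.0. Without Cj pH 6.5 replicate 3, a library in neither of these groups but in the shared fit, it was 1. It was 7 without Pt pH 6.5 replicate 1 and stayed at 6 without any other pH 6.5 library.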

How the data were processed

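Small RNA was sequenced from roots of Pt and Cj seedlings under the normal pH and the mild and strong alkalinity, with 3 libraries in each of 6 groups. The 2 degradome libraries were not analysed here. The authors trimmed and filtered the reads, removed structural RNA with Bowtie, matched the rest to the Citrus sinensis genome (release not given in the sources used here), took known miRNAs from miRBase and predicted others with miRDeep2. The deposited table gives raw read counts per mature miRNA and library. It also gives TPM, with no length term, scaled to what the authors call total mapped reads. Only those library totals, taken back from the TPM, were used here. The submitters' processing notes name DESeq 1.10.1. The deposited miRDeep2 score of the predicted precursors was not used. The 3 repeated lines of csi-miRN52 were dropped and 1 line held no values, which left 100 miRNAs.

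Counts were tested with edgeR 4.0.16 (R 4.3.3) by quasi-likelihood F tests with TMM factors, 1 mean per group over all 18 libraries, a minimum count of 10 and total of 15, and Benjamini-Hochberg adjustment over 96 miRNAs. Differences are Pt minus Cj, and differences of differences came from the same fit. Shares were compared with exact permutation tests (scipy 1.17.1). Listed reads ranged from 77255 to 771522 over the 18 libraries, and in a pH 9.5 library 3 reads are 4.22 to 9.10 CPM. Alternatives were other scalings, no filter, DESeq2 1.42.0, limma 3.58.1, summed sequences, fewer libraries and a replicate block. Near-identical sequences overlap by at least 18 bases with at most 2 mismatches (34 miRNAs in 13 groups). The scripts were tested on simulated data.

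Members and lists were chosen with earlier results of these data known. Named were the 12 largest non-overlapping called differences in each direction, the 5 most abundant miRNAs, all members of the copper, phosphate and sulfate, auxin, MIR482 and MIR477 lists, and the 5 largest called differences of differences. Examples from other lists (csi-miR319, csi-miR172a-3p, csi-miR166a, csi-miR166e-3p, csi-miR162-5p, csi-miR396b, csi-miR3952, csi-miR3954), csi-miR408, csi-miR398 and csi-miR397 at the other pH values, and opposite arms were named after their values were seen.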

Additional observations from a re-analysis of the deposited data

Results flagged for a closer look

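The results in this part are miRNAs whose Pt minus Cj difference at pH 9.5 was another than in a milder solution, by edgeR's test of the difference of differences on the log2 scale. Against pH 6.5, the value was lower at pH 9.5 for csi-miRN20 and csi-miRN52 (-2.41 each), csi-miR479 (-2.16), csi-miR473 (-1.93), csi-miR396c (-1.57), csi-miRN50 (-1.53), csi-miR397 (-1.39), csi-miRN47 (-1.37), csi-miR398 (-1.10), csi-miR408 (-0.96), csi-miR167b (-0.76) and csi-miR166d (-0.73). It was higher at pH 9.5 for csi-miR159 (0.56), csi-miR164 (0.91), csi-miR396b (0.98), csi-miR394 (1.22), csi-miRN23 (2.65) and csi-miRN34 (4.03). The edgeR adjusted p ranged from 2.71e-09 for csi-miRN52 to 0.0405 for csi-miR159. The call held under all 25 alternatives in 13 of the 18. csi-miR159 kept it in 7 and lost it without any one of the 12 libraries of pH 6.5 and pH 9.5 (0.41 to 0.66, edgeR adjusted p 0.0596 to 0.175). csi-miR164 lost it without Cj pH 6.5 replicate 1, Pt pH 6.5 replicate 2 or Pt pH 9.5 replicate 2 (0.80 to 0.88). csi-miR408 lost it without Cj pH 6.5 replicate 3, Pt pH 6.5 replicate 2 or Pt pH 9.5 replicate 1 (-0.89 to -0.83). csi-miR167b lost it without any of 8 libraries (-0.78 to -0.64, edgeR adjusted p 0.0688 to 0.154), keeping it only without Cj pH 6.5 replicate 1, Cj pH 9.5 replicate 1, Pt pH 6.5 replicate 1 or Pt pH 6.5 replicate 3. csi-miR166d lost it with near-identical sequences summed (-0.35) and without any of 7 libraries (-0.74 to -0.61), keeping it only without Cj pH 6.5 replicate 2, Cj pH 9.5 replicate 1, Pt pH 6.5 replicate 1, Pt pH 6.5 replicate 3 or Pt pH 9.5 replicate 3.

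Against pH 8.0, the value was lower at pH 9.5 for csi-miR396c (-1.09), csi-miR479 (-0.95), csi-miRN47 (-0.89) and csi-miRN52 (-0.85), and higher for csi-miRN23 (1.67) and csi-miR399e (1.88), with edgeR adjusted p from 0.0178 to 0.0317. Only csi-miR399e is in this group and not in the former. None of these 6 kept its call under all 25 alternatives.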

How the results depend on the processing

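Of 1220 values of the pH 9.5 comparison under alternatives (61 results), 1151 kept direction and side of the threshold. Of the others, 35 lost a call, 16 gained one in the same direction and 18 changed sign, some of them to a called difference. Of 600 values for differences of differences, 472 kept theirs and 128 lost a call. The cause of these changes was not tested. Alternatives chosen after seeing the data were scaling to the listed reads, counting the same reads once, and leaving out the shallow library Pt pH 8.0 replicate 1.

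The count of called miRNAs at pH 9.5 was 52 to 67 across alternatives, and 53 to 58 when a pH 9.5 library was left out. Against pH 6.5 the 18 calls became 31 with the listed reads and 27 with the total mapped reads, and 13 to 29 with a library left out. Against pH 8.0 the 6 calls became 2 with DESeq2 size factors, TMM factors from known miRNAs, or the same sequence counted once, 3 without the 5 most abundant miRNAs, 1 without the shallow library, and 0 to 3 with a library of pH 8.0 or 9.5 left out.

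Sign changes were limited to csi-miR482b (-0.04 with the listed reads) and to results not called with TMM factors over all miRNAs. Some of the latter were then called lower in Pt. With the listed reads these were csi-miR166d, csi-miRN48, csi-miRN45 and csi-miR472 (edgeR adjusted p = 0.000796, 0.00248, 0.0305 and 0.0357). With the total mapped reads they were csi-miR166d and csi-miRN48 (edgeR adjusted p = 0.0385 and 0.0284). csi-miR166d was at -0.35 with the total mapped reads, -0.01 with known-miRNA factors, -0.47 with the listed reads, -0.08 with only the 6 libraries, and -0.02 to 0.17 with a library left out. csi-miRN45 was at -0.35 with the total mapped reads, -0.33 with near-identical sequences summed, -0.45 with the listed reads, -0.07 with only the 6 libraries, and -0.10 to 0.23 with a library left out. csi-miRN48 was at -0.34, -0.23, -0.45 and -0.07 under those 4 settings. csi-miR472 was at -0.21 with the total mapped and -0.33 with the listed reads, and csi-miRN09 at -0.03 with the latter. The 24-nt share differed by -0.62 percentage points without csi-miRN50.

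Replicate numbers were not taken to pair the libraries. The correlations of same-numbered Pt and Cj deviations were 0.05, 0.03 and -0.04 at pH 9.5. They were 0.04, -0.06 and 0.28 at pH 8.0 and -0.02, 0.03 and -0.29 at pH 6.5. So few values cannot exclude a pairing. With the replicate block, 63 miRNAs were called at pH 9.5, 22 differences against pH 6.5 and 7 against pH 8.0.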
